A study of Mus musculus with 2 samples.

Results

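The report covers 9 genes of the regulated exocytosis machinery, *Snap25*, *Stx1a*, *Vamp2*, *Syt4*, *Syt7*, *Syt13*, *Rab3a*, *Rab27a* and *Cplx2*, in dispersed mouse islet cells. They were picked by name from the 27998 genes counted, and each name matched 1 gene. The data were 3′ single-cell RNA-seq counts from 1 library of wild-type (WT) mice and 1 library of ghrelin-knockout (GKO) mice, and asked which islet genes differ when ghrelin, the stomach-derived hormone that acts on growth hormone secretagogue receptors, is missing from the germline. Both libraries were made from islets of 8-week-old C57BL/6N male littermates on standard chow, born to crosses of GKO heterozygotes (line GKO1), with islets of 4 mice pooled per genotype and live single cells sorted from them. With 1 pool per genotype, the difference between genotypes cannot be told apart from the difference between pools or libraries, no test was possible, and no p-value is given.

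The WT library held 158067110 transcript counts (unique molecular identifiers, UMIs) in 7792 barcodes and the GKO library 103511757 UMIs in 7289 barcodes. With limits of 500 detected genes and a mitochondrial share of 10% per barcode, 7100 WT and 6346 GKO barcodes were kept. *Ghrl*, the targeted gene, had 43634 UMIs in WT barcodes and 280 in GKO barcodes, in the direction of the labels. A barcode was called insulin-led, glucagon-led, somatostatin-led or pancreatic polypeptide-led (PP-led) when that hormone was its most abundant and made up at least 10% of its UMIs, and nonendocrine when no hormone reached 10%. Insulin-led barcodes numbered 2265 in WT and 872 in GKO, glucagon-led 1048 and 1397, somatostatin-led 1414 and 1003, PP-led 717 and 669, and nonendocrine 1656 and 2405. Among these classes, markers other than the hormones that define them were highest in the class they mark, in both libraries, for 6 of 6 beta cell, 4 of 4 delta cell and 2 of 3 gamma cell genes, the exception being *Aqp3*. The beta cell genes included *Iapp* and the gamma cell genes *Pyy*, themselves peptide hormone genes. The delta cell gene *Hhex* was higher still in the ductal-like part of the nonendocrine barcodes, defined below. Of the alpha cell genes reported, *Irx1*, *Irx2* and *Slc7a2* were highest in glucagon-led barcodes in both libraries, and *Gc* was not. Doublets were not removed, so that the 183 WT and 97 GKO barcodes with a second hormone at 10% or more stayed with their leading hormone, and 18 barcode sequences occurred in both libraries.

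Endocrine cells store peptide hormones in dense-core granules and release them when calcium enters. The granule protein VAMP2 pairs with syntaxin 1A and SNAP-25 of the plasma membrane to form the SNARE complex that draws the membranes together. Synaptotagmins couple calcium to fusion, complexins clamp and then support the assembled SNARE complex, and the GTPases RAB3A and RAB27A sit on granules and recruit the effectors that tether and dock them. In the islet the same machinery serves insulin, glucagon, somatostatin and pancreatic polypeptide release.

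Levels are given as CPM, the UMIs of a gene per 1000000 UMIs of all barcodes of a class in a library, and they describe 1 gene across classes, not 1 gene against another. Their 95% intervals are exact Poisson intervals, and these, like every interval below, cover counting error only.

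*Snap25* (chromosome 2, 136713453 to 136782428, GRCm38), a SNARE of the plasma membrane, was scarce outside endocrine barcodes. It stood at 67.0 CPM in WT and 79.1 CPM in GKO insulin-led barcodes, at 115 and 124 CPM in glucagon-led, 96.8 and 107 CPM in somatostatin-led and 83.0 and 86.6 CPM in PP-led barcodes. Among nonendocrine barcodes with at least 3 markers of 1 cell type detected and more of these than of any other, it stood at 5.08 and 1.95 CPM in endothelial-like, 3.13 and 3.14 CPM in stellate-like, 6.78 and 20.2 CPM in immune-like and 19.5 and 19.0 CPM in ductal-like barcodes. The immune-like value in GKO rested on 1 barcode, described with the nonendocrine barcodes below. *Stx1a* (chromosome 5, 135023482 to 135051100) was sparse throughout, with 990 UMIs in all kept WT barcodes and 748 in GKO. It stood at 3.10 CPM in WT and 3.08 CPM in GKO insulin-led barcodes, 10.3 and 10.5 CPM in glucagon-led, 14.5 and 13.6 CPM in somatostatin-led and 9.56 and 10.7 CPM in PP-led barcodes. In endothelial-like barcodes it stood at 13.5 CPM in WT and 8.65 CPM in GKO, above its insulin-led but below its somatostatin-led level in both libraries, against 5.99 and 5.49 CPM in stellate-like and 1.76 and 1.94 CPM in immune-like barcodes. *Vamp2* (chromosome 11, 69088490 to 69092384), the granule SNARE, was present in every class. Its level was 62.6 and 65.9 CPM in insulin-led, 90.3 and 103 CPM in glucagon-led, 111 and 123 CPM in somatostatin-led and 77.1 and 81.8 CPM in PP-led barcodes of WT and GKO. In the same order of libraries it was 49.8 and 56.3 CPM in endothelial-like, 63.3 and 74.3 CPM in stellate-like, 27.9 and 39.2 CPM in immune-like and 43.5 and 64.8 CPM in ductal-like barcodes. Stellate-like barcodes thus reached the level of insulin-led ones by CPM, but not when the UMIs of the 5 hormone genes were left out of the total (64.2 and 74.9 CPM against 162 and 162 CPM).

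*Syt4* (chromosome 18, 31437808 to 31447406, minus strand) encodes a synaptotagmin of secretory granules whose C2 domains bind calcium poorly. It was the only member with its highest CPM in insulin-led barcodes in both libraries, at 80.6 CPM in WT and 102 CPM in GKO. It stood at 71.3 and 79.4 CPM in glucagon-led, 74.9 and 79.6 CPM in somatostatin-led and 74.4 and 77.2 CPM in PP-led barcodes, 3 classes that did not keep 1 order in both libraries. Endothelial-like, stellate-like and immune-like barcodes held between 1.12 and 6.73 CPM. *Syt7* (chromosome 19, 10389090 to 10453180), a high-affinity calcium sensor for granule fusion, was instead highest in glucagon-led barcodes. It reached 128 CPM in WT and 146 CPM in GKO there, 91.9 and 106 CPM in somatostatin-led, 69.3 and 68.6 CPM in PP-led and 56.0 and 64.6 CPM in insulin-led barcodes. Of the 4 nonendocrine cell types it was highest in ductal-like barcodes, at 39.8 CPM in WT (95% interval 29.8 to 52.0) and 72.4 CPM in GKO (59.7 to 86.9), against 4.05 to 15.2 CPM in endothelial-like, stellate-like and immune-like barcodes. By CPM the ductal-like level of *Syt7* was above its insulin-led and PP-led levels in GKO, but below every hormone class in WT. The GKO interval included both of those levels. With hormone UMIs left out of the total, ductal-like barcodes were below every hormone class in both libraries. In GKO they then reached 74.2 CPM, against 107 CPM for PP-led and 158 CPM for insulin-led barcodes. *Syt13* (chromosome 2, 92915098 to 92956058) encodes a synaptotagmin without the residues that bind calcium. It was found in nearly every insulin-led barcode, with a UMI in 99.5% of WT and 99.4% of GKO. Insulin-led barcodes were also the deepest of the hormone classes. With all barcodes thinned to an equal depth, as described below, *Syt13* was seen in 66.2% of WT and 67.3% of GKO insulin-led barcodes. At that depth it was seen in 66.8% and 64.3% of glucagon-led, 71.6% and 69.4% of somatostatin-led and 48.6% and 51.7% of PP-led barcodes. Its level was 230.5 and 234 CPM in insulin-led, 225 and 207 CPM in glucagon-led, 279.6 and 249.6 CPM in somatostatin-led and 151 and 151 CPM in PP-led barcodes of WT and GKO. Endothelial-like barcodes held 12.5 and 5.02 CPM, stellate-like 18.0 and 10.1 CPM and immune-like 12.8 and 12.9 CPM.

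*Rab3a* (chromosome 8, 70754679 to 70758677) and *Rab27a* (chromosome 9, 73044854 to 73097629) encode the granule GTPases. *Rab3a* stood at 79.2 CPM in WT and 89.9 CPM in GKO insulin-led barcodes, at 61.1 and 70.8 CPM in glucagon-led, 107 and 114 CPM in somatostatin-led and 76.1 and 76.2 CPM in PP-led barcodes. Like *Vamp2* it was not confined to endocrine barcodes, with 56.5 and 53.3 CPM in endothelial-like and 51.3 and 65.7 CPM in stellate-like barcodes, close to its glucagon-led level by CPM. Without hormone UMIs these values were 57.2 and 53.6 CPM in endothelial-like and 52.1 and 66.2 CPM in stellate-like barcodes, below the 85.1 and 98.9 CPM of glucagon-led ones. Immune-like barcodes held 10.0 CPM in WT and 33.9 CPM in GKO, again with a large part from 1 GKO barcode. *Rab27a* stood at 38.6 and 40.3 CPM in insulin-led, 59.0 and 49.0 CPM in glucagon-led, 80.7 and 69.5 CPM in somatostatin-led and 27.0 and 24.9 CPM in PP-led barcodes of WT and GKO. Its somatostatin-led level was therefore above its PP-led level by 2.99 times in WT and 2.79 times in GKO. In endothelial-like, stellate-like and immune-like barcodes *Rab27a* ranged from 2.09 to 14.5 CPM.

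*Cplx2* (chromosome 13, 54371349 to 54383917), the complexin of islet cells, was highest in somatostatin-led barcodes, with glucagon-led ones next. It stood at 202 CPM in WT and 219 CPM in GKO somatostatin-led barcodes, at 156 and 168 CPM in glucagon-led, 94.1 and 88.4 CPM in PP-led and 73.1 and 77.5 CPM in insulin-led barcodes. Endothelial-like barcodes held 19.2 and 10.6 CPM, stellate-like 16.4 and 14.9 CPM, immune-like 12.8 and 8.67 CPM and ductal-like 24.0 and 36.2 CPM.

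**Figure D1:**
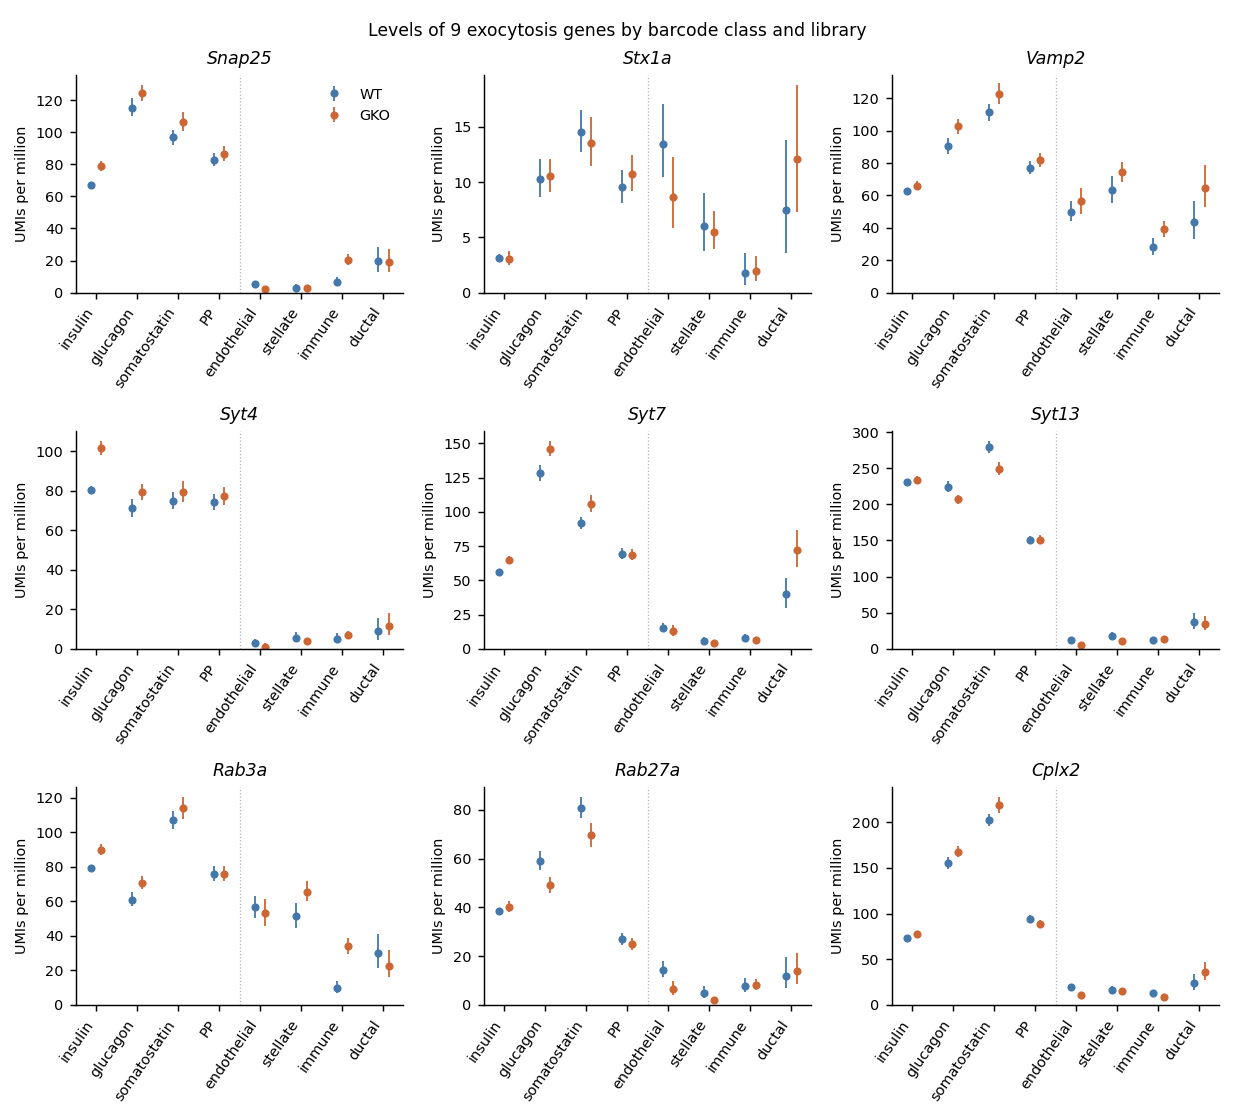
Levels of the 9 genes in CPM (vertical axis, one panel per gene with its own scale) by barcode class, with 1 point per library and bars for the exact Poisson 95% interval. *Snap25*, *Syt4* and *Syt13* are low in endothelial-like, stellate-like and immune-like barcodes, while *Vamp2* and *Rab3a* stand at 49.8 to 74.3 CPM in the endothelial-like and stellate-like barcodes of both libraries.

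The order of the endocrine classes depended on the scale for most members. Insulin-led barcodes spent 61.3% of their UMIs in WT and 59.2% in GKO on the 5 hormone genes, against 28.2% and 28.4% in glucagon-led, 22.4% and 22.0% in somatostatin-led and 36.9% and 35.9% in PP-led barcodes. The 5 genes are *Ins1*, *Ins2*, *Gcg*, *Sst* and *Ppy*. Other peptide hormone genes stayed in the totals called hormone-free. *Pyy* stood at 118460 and 117850 CPM in PP-led and 53272 and 48774 CPM in somatostatin-led barcodes. *Iapp* stood at 40020 and 40991 CPM in insulin-led and 27883 and 30832 CPM in somatostatin-led barcodes. Their part in the order of the classes was not tested. By CPM, insulin-led barcodes were the lowest of the 4 classes in both libraries for *Snap25*, *Stx1a*, *Vamp2*, *Syt7* and *Cplx2*. When the UMIs of the hormone genes were left out of the total, insulin-led barcodes were the highest in both libraries for *Vamp2* (162 CPM in both WT and GKO), *Syt4* (208 and 249 CPM), *Syt13* (595 and 572 CPM) and *Rab3a* (204 and 220.4 CPM). On that hormone-free scale the insulin-led and glucagon-led levels of *Snap25* overlapped between the libraries (173 and 194 CPM against 161 and 174 CPM), as did the insulin-led and somatostatin-led levels of *Rab27a* (99.6 and 98.8 CPM against 104 and 89.1 CPM). Some members kept their highest or lowest class on both scales. They included *Stx1a*, lowest in insulin-led barcodes (8.0 and 7.54 CPM hormone-free), *Syt7*, highest in glucagon-led barcodes (179 and 204 CPM), *Syt4*, highest in insulin-led barcodes, and *Cplx2*, highest in somatostatin-led barcodes (260.5 and 280.3 CPM). *Rab3a* stayed lowest in glucagon-led barcodes (85.1 and 98.9 CPM hormone-free). *Syt13* (238 and 236 CPM) and *Rab27a* (42.7 and 38.8 CPM) stayed lowest in PP-led ones. *Stx1a* in somatostatin-led barcodes exceeded its insulin-led level by 4.69 times in WT and 4.41 times in GKO by CPM, and by 2.34 and 2.31 times on the hormone-free scale.

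**Figure D2:**
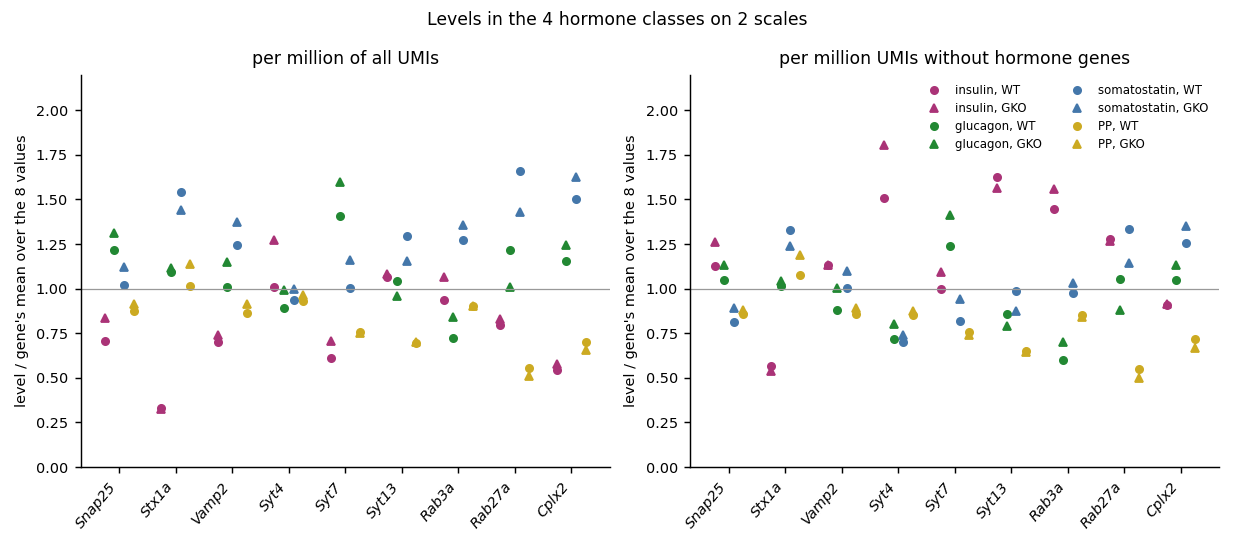
Each gene's level in the 4 hormone classes divided by its mean over the 8 values (vertical axis), on CPM over all UMIs and on CPM without the UMIs of the hormone genes, with one point per library. The insulin-led points of *Snap25* and *Vamp2* lie at the bottom on the first scale and at or near the top on the second, whereas those of *Stx1a* are the lowest on both.

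The share of barcodes with a UMI followed the levels and the depth. Median depth was 37124 UMIs per barcode in WT and 35811 in GKO for insulin-led barcodes, and 7084 and 7307 for endothelial-like ones. *Snap25* was seen in 86.7% of WT and 89.9% of GKO insulin-led barcodes, and after thinning every barcode to 5000 UMIs and leaving out the 389 WT and 569 GKO barcodes below this depth, in 29.4% and 31.8%. The thinned share of *Snap25* in endothelial-like barcodes was 1.36% and 0.938% (2.38% and 1.36% unthinned). For *Rab3a* the thinned share was 24.9% in WT and 21.6% in GKO endothelial-like barcodes (35.9% and 32.3% unthinned) and 23.1% and 23.8% in stellate-like barcodes, but 4.51% and 8.20% in immune-like ones. *Vamp2* likewise had thinned shares of 23.1% to 30.4% in endothelial-like and stellate-like barcodes and of 14.3% and 11.2% in immune-like barcodes. At equal depth the shares of *Rab3a* and *Vamp2* were thus unequal between cell types of 1 library. The part of free RNA in these shares was not tested.

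The contrast between endocrine and other barcodes was then set beside the wider exocytosis machinery. For each gene the mean CPM of the 4 hormone classes was divided by the mean CPM of endothelial-like, stellate-like and immune-like barcodes. Ductal-like barcodes were left out of this ratio. In log2 units this ratio was 4.18 in WT and 3.56 in GKO for *Snap25*, 4.05 and 4.43 for *Syt4*, 3.94 and 4.50 for *Syt13*, 3.19 and 3.61 for *Syt7*, 3.03 and 3.60 for *Cplx2* and 2.50 and 3.03 for *Rab27a*. Without 1 GKO barcode among the immune-like ones the GKO value of *Snap25* was 4.59. The ratio was below 1 in at least 1 library for the other members, at 0.40 and 0.82 for *Stx1a*, 0.86 and 0.72 for *Vamp2* and 1.04 and 0.78 for *Rab3a*. By CPM 6 of 9 members were thus at least 2-fold higher in the hormone classes in both libraries and none was 2-fold lower, whereas of 12145 genes with at least 200 UMIs in these classes of each library 13.8% were 2-fold higher and 28.0% were 2-fold lower. Without hormone UMIs 8 of 9 members were 2-fold higher, all but *Stx1a* (0.97 and 1.38), beside 22.6% of genes higher and 18.6% lower. A list of 74 further exocytosis genes, chosen from textbook knowledge and with earlier results of these data known, divided by role. The other SNAREs, among them the ubiquitous *Snap23* and *Vamp3*, had 0 of 13 measured genes 2-fold higher and 4 lower by CPM. Without hormone UMIs 4 of them were higher (*Snap47*, *Stx3*, *Vamp1* and *Vamp7*) and 2 lower (*Snap23* and *Stx2*). The calcium sensors and complexins had 8 of 9 genes 2-fold higher by CPM, and the docking and priming factors 7 of 10. The Rab proteins and effectors had 10 of 15 higher, with 1 lower, and the SNARE disassembly factors and inhibitors 3 of 7. Without hormone UMIs the higher genes numbered 8, 8, 12 and 3. These lists held 13, 14, 17 and 7 genes, and those short of 200 UMIs were left out. Most of the UMIs behind this floor came from the hormone classes, so genes high there were kept more readily. Left out were, among others, *Cplx1*, *Cplx3*, *Unc13d*, *Myrip* and *Mlph*, lower in the hormone classes by CPM, and *Rims1* and *Syt6*, higher. The exocyst, a vesicle-tethering complex, had 0 of 9 genes past 2-fold in either direction on both scales, with medians of -0.09 in WT and -0.07 in GKO by CPM and of 0.57 and 0.56 without hormone UMIs.

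Close relatives of the members had distributions of their own. *Snap23*, the SNAP-25 relative of non-neuronal cells, stood at 10.3 and 13.5 CPM in insulin-led and at 64.3 and 88.5 CPM in immune-like barcodes of WT and GKO, the reverse of *Snap25*. *Vamp3* stood at 18.7 and 20.9 CPM in insulin-led and at 142 and 163 CPM in endothelial-like barcodes. *Rab27b* was highest in ductal-like barcodes, with 154 and 223 CPM there against 0.876 and 0.671 CPM in insulin-led barcodes. Its count above as 2-fold higher in the hormone classes (2.34 in WT and 1.60 in GKO) left ductal-like barcodes out. *Rab3b* marked somatostatin-led barcodes, with 208 and 205 CPM against 29.5 to 41.7 CPM in the other hormone classes. *Rab3d* was higher in insulin-led barcodes, at 42.5 and 51.3 CPM, than in the other hormone classes, at 19.9 to 32.8 CPM. *Cplx1* had at most 2 UMIs in any hormone class of either library.

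Promoter sequence was matched for 4 members, and 3 windows are shown because their genes differ in this contrast. *Stx1a* and *Rab3a* were less than 2-fold higher in the hormone classes by CPM in at least 1 library, and *Rab27a* was more than 2-fold higher in both. The window of *Cplx2* lay far upstream of its annotated gene and is not shown, and it held 0 GC boxes and 2 E-boxes (CANNTG). The windows are RefSeq promoter sequence upstream of the gene start, GRCm38.p6, plus strand, 5′ to 3′, with capitals marking GC boxes, CCAAT boxes and short cyclic AMP response element sites on either strand, and the *Rab3a* window is cut to 226 of the 250 bases so that it ends before the gene. They lie at chr5:135023232-135023481 for *Stx1a*, chr8:70754453-70754678 for *Rab3a* and chr9:73044560-73044809 for *Rab27a*.
Stx1a: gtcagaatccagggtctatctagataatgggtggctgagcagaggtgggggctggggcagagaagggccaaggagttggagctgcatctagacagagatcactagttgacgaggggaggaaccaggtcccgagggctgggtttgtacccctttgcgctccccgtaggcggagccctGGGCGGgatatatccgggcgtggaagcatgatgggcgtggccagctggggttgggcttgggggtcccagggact
Rab3a: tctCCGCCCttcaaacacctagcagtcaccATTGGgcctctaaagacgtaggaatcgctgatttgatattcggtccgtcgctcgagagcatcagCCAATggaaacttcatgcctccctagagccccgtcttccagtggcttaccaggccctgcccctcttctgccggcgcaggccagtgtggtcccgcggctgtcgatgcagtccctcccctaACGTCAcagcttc
Rab27a: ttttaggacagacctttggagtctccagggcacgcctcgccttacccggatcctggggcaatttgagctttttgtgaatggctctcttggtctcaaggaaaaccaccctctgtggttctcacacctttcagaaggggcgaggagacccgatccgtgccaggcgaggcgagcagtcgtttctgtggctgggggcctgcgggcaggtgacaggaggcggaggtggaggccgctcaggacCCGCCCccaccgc
The 3 windows each held 1 GC box (GGGCGG), and had 9, 14 and 14 CpG dinucleotides at 62.0%, 58.8% and 62.0% G and C, against a median of 6 CpG over all promoters of that table. *Rab3a* alone had CCAAT boxes, at 2 positions, and a short cyclic AMP response element (TGACGT). Of 32851 promoters 32.7% held a GC box, 33.8% a CCAAT box and 6.47% this last site. E-boxes were present in 66.2% of promoters and once each in the *Stx1a* and *Rab27a* windows, and neither a TATA box (TATAAA, 12.4% of promoters) nor the letters TCAGCACC (1.32%), part of the site of the neuronal repressor REST, matched in the 3 windows. These matches describe letters and not binding.

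Within insulin-led barcodes the members followed the share of insulin in different ways. On the hormone-free scale *Syt4* stood at 127 CPM in WT and 142 CPM in GKO barcodes with 10% to 25% insulin UMIs, at 171 and 197 CPM in those with 25% to 60%, and at 247 and 315 CPM in those with 60% or more. *Syt13* had the same course, from 404 and 396 CPM to 519 and 514 CPM and to 675 and 654 CPM, and *Rab3a* went from 122.5 and 143 CPM to 240 and 269 CPM between the first and the last of these ranges. *Stx1a* and *Cplx2* ran the other way. *Stx1a* was 12.8 and 15.3 CPM at 10% to 25% insulin and 5.93 and 4.63 CPM at 60% or more. *Cplx2* was 233 and 272 CPM against 159 and 143 CPM. By CPM over all UMIs both also fell. *Syt13* fell there too, from 294.7 to 219.6 CPM in WT and from 282.7 to 220.6 CPM in GKO. *Rab3a* fell from 89.3 to 77.9 CPM and from 102.1 to 90.6 CPM, and *Syt4* fell in WT (92.9 to 80.2 CPM) but not in GKO. The rises of *Syt13* and *Rab3a*, and of *Syt4* in WT, thus held only on the hormone-free scale. The lowest range held only 53 WT and 37 GKO barcodes, barcodes of higher insulin share also carried more UMIs, and doublets with other endocrine cells were not removed, and the part of these in the courses was not tested.

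The comparison of GKO with WT was made class by class. The log2 ratio of the 2 CPM values is given with its exact conditional 95% interval, and a gene was counted as past the fold when this ratio was 0.25 or more in size, among genes with at least 20 UMIs in each library and 200 in both. All 9 members had enough UMIs in each of the 5 classes.

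In insulin-led barcodes *Syt4* was the member that differed most, higher in GKO with a log2 ratio of 0.33 (0.28 to 0.39) by CPM and 0.26 on the hormone-free scale. It was the only member past the fold, so that 1 of 9 members was higher and 0 lower, where 15.6% of 10692 genes were past the fold higher and 5.59% lower. The call did not hold with TMM scaling (0.24) or with barcodes thinned to 5000 UMIs (0.23). *Snap25* followed with 0.24 (0.17 to 0.31), then *Syt7* with 0.21 (0.13 to 0.28) and *Rab3a* with 0.18 (0.12 to 0.25). The ratios of *Cplx2* (0.09), *Vamp2* (0.07), *Rab27a* (0.06), *Syt13* (0.02) and *Stx1a* (-0.01) were smaller, and the interval of *Stx1a* ran from -0.35 to 0.32. The median ratio of the members was 0.09 and that of all genes 0.09, and on the hormone-free scale both were 0.01, so that the members as a group stood where the other genes of these barcodes stood. Insulin genes took 59.5% of the UMIs of insulin-led barcodes in WT and 57.4% in GKO.

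In glucagon-led barcodes the member furthest from 0 was *Rab27a*, lower in GKO with a ratio of -0.27 (-0.40 to -0.13). Of the members 0 were past the fold higher and 1 lower, beside 11.9% and 6.83% of 9183 genes. *Rab3a* (0.21, 0.09 to 0.34), *Syt7* (0.19, 0.10 to 0.27), *Vamp2* (0.18, 0.08 to 0.29) and *Syt4* (0.16, 0.04 to 0.27) were higher in GKO short of the fold, and *Syt13* was lower at -0.12 (-0.19 to -0.05). *Snap25* and *Cplx2* stood at 0.11 each and *Stx1a* at 0.03. The members' median of 0.11 lay above the median of all genes, 0.05.

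In somatostatin-led barcodes no member passed the fold in either direction, beside 9.79% of 9126 genes higher and 7.98% lower. The lowest ratios were again those of *Rab27a* (-0.22, -0.35 to -0.09) and *Syt13* (-0.16, -0.23 to -0.10), and the highest that of *Syt7* (0.21, 0.09 to 0.32). *Snap25* and *Vamp2* stood at 0.14 each, *Cplx2* at 0.11, *Rab3a* and *Syt4* at 0.09 each and *Stx1a* at -0.10. In PP-led barcodes no member passed the fold either, beside 11.5% of 8288 genes higher and 5.91% lower, and every interval of the 9 members included 0. The ratios there ran from -0.12 for *Rab27a* to 0.17 for *Stx1a*, which had 165 and 167 UMIs and an interval of -0.15 to 0.49. The members' medians were 0.09 in somatostatin-led and 0.01 in PP-led barcodes, beside 0.03 and 0.06 for all genes.

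Across the 4 hormone classes *Snap25* and *Syt4* were higher in GKO in 4 of 4 classes on both scales, with *Snap25* between 0.06 and 0.24 and *Syt4* between 0.05 and 0.33 by CPM. *Vamp2* and *Rab3a* were higher in 4 of 4 classes by CPM and in 3 of 4 on the hormone-free scale. *Syt13* and *Rab27a* were lower in GKO in 4 of 4 classes on the hormone-free scale, by CPM in 2 and 3 of them. Their hormone-free ratios came as near to 0 as -0.017 and -0.012. By CPM the interval of each gene lay below 0 in 2 of 4 classes. The 4 classes share 1 library per genotype, so that these counts are not 4 separate observations. By CPM 58.6% to 70.6% of all genes with enough UMIs were above 0 in these classes. The share of all genes on 1 side of 0 in all 4 classes was not counted, nor was the share below 0 on the hormone-free scale. *Snap25* was below 0 under 1 of 12 processing alternatives each in glucagon-led, somatostatin-led and PP-led barcodes, as was *Syt4* in PP-led ones. In insulin-led barcodes *Syt13* and *Rab27a* were above 0 under 9 of 12 alternatives each.

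**Figure D3:**
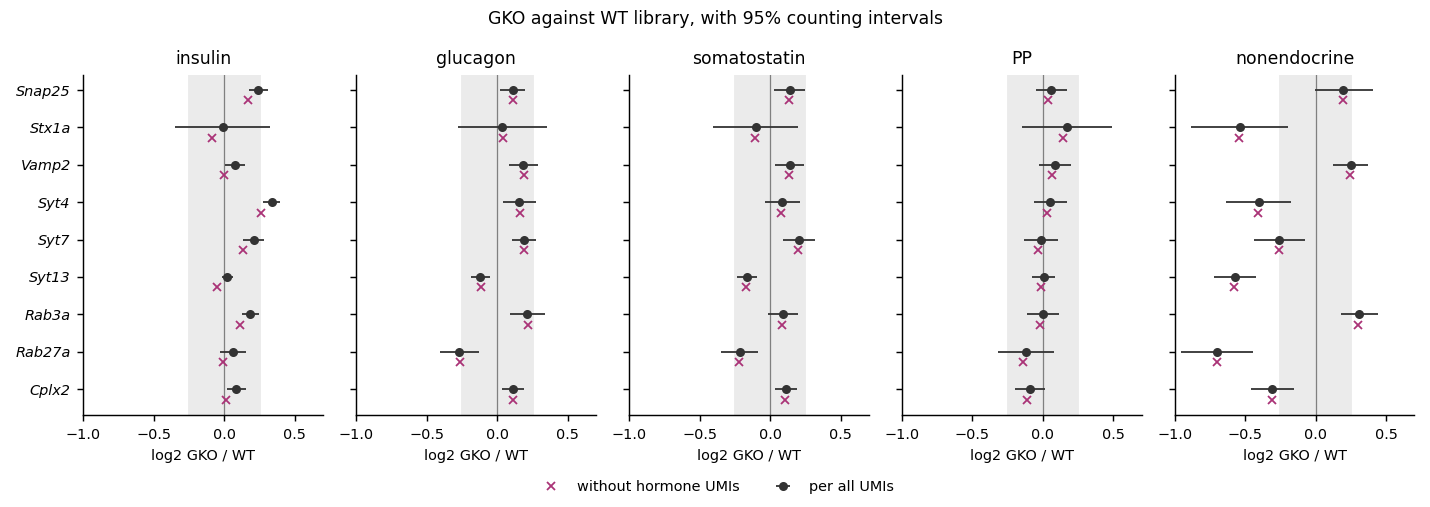
Log2 ratio of GKO to WT CPM (horizontal axis) of each member in the 4 hormone classes and in nonendocrine barcodes, with exact 95% counting intervals and a shaded band of 0.25 on either side of 0. Crosses give the ratio without hormone UMIs. By CPM over all UMIs, *Syt4* in insulin-led and *Rab27a* in glucagon-led barcodes are the only hormone-class points outside the band, whereas 7 of 9 nonendocrine points are.

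**Figure D4:**
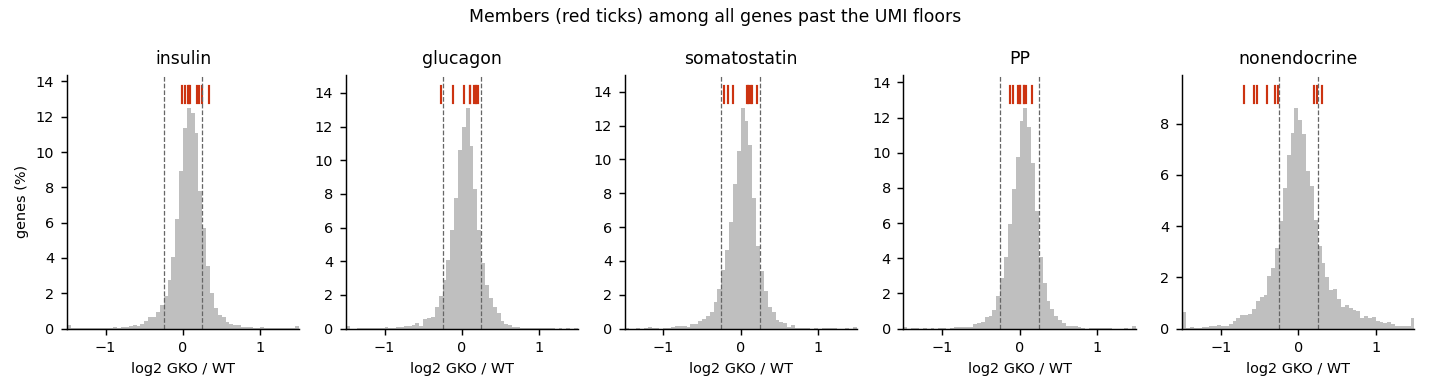
Distribution of the log2 ratio of GKO to WT CPM over all genes with enough UMIs (bars, percent of genes) in each class, with the 9 members as red ticks and genes beyond the axis gathered in the end bars. In the hormone classes the ticks lie between -0.27 and 0.33, and in nonendocrine barcodes 6 of 9 lie below -0.25.

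In the hormone classes the 74 further genes ran over a wider range, from -0.50 to 0.99, than the members, from -0.27 to 0.33. In insulin-led barcodes 60 had enough UMIs, with 13 past the fold higher, 1 lower and a median ratio of 0.14, in glucagon-led barcodes 53 with 8, 2 and 0.10, in somatostatin-led barcodes 52 with 4, 2 and 0.05, and in PP-led barcodes 52 with 6, 3 and 0.06. Docking and priming factors were above 0 in 9 of 10 genes in insulin-led, 9 of 10 in glucagon-led, 9 of 9 in somatostatin-led and 8 of 9 in PP-led barcodes, with medians of 0.14, 0.13, 0.16 and 0.12. Of all genes with enough UMIs 70.6%, 62.0%, 58.6% and 63.5% were above 0 in these classes. Of the same genes 15.6%, 11.9%, 9.79% and 11.5% were past the fold higher, and 5.59%, 6.83%, 7.98% and 5.91% lower. Rab proteins and effectors were above 0 in 10 of 13 genes in insulin-led, 5 of 11 in glucagon-led, 3 of 9 in somatostatin-led and 6 of 12 in PP-led barcodes. The highest values of the list in insulin-led barcodes were those of *Sytl3* (0.64), a synaptotagmin-like Rab27 effector, and *Stxbp3* (0.45), a Munc18 partner of syntaxins, and the lowest values those of *Mlph* (-0.49), melanophilin, and *Syt16* (-0.21). In glucagon-led barcodes the furthest genes were *Rab27b* (0.99, from 71 and 182 UMIs) and *Sytl2* (0.56), another Rab27 effector, against *Snap29* (-0.26) and *Rab3b* (-0.25). In somatostatin-led barcodes they were *Syt5* (0.37) and *Vamp3* (0.34) against *Syt6* (-0.50) and *Rab3ip* (-0.30), a Rab exchange factor. In PP-led barcodes they were *Exoc2* (0.54), an exocyst subunit, and *Stx4a* (0.48) against *Rab3c* (-0.34) and *Sytl1* (-0.33).

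In nonendocrine barcodes the members spread further. Past the fold were 1 of 9 members higher and 6 lower, beside 19.8% of 11266 genes higher and 15.9% lower, and the members' median ratio was -0.31 beside 0.01 for all genes. The 6 lower members were *Rab27a* (-0.70, -0.95 to -0.44), *Syt13* (-0.57, -0.72 to -0.42), *Stx1a* (-0.54, -0.88 to -0.20), *Syt4* (-0.41, -0.64 to -0.17), *Cplx2* (-0.31, -0.46 to -0.15) and *Syt7* (-0.26, -0.44 to -0.08). *Rab3a* was the 1 higher member with 0.31 (0.18 to 0.44), *Vamp2* stood just inside the fold at 0.25 (0.13 to 0.37) and *Snap25* at 0.20 (-0.01 to 0.40). After barcodes with over 1% hormone UMIs were left out, 4 members had enough UMIs, *Vamp2* (0.39), *Rab3a* (0.32), *Cplx2* (-0.10) and *Syt7* (-0.28), 2 of them past the fold higher and 1 lower. The share of all genes past the fold was not counted without those barcodes. With every barcode thinned to 5000 UMIs *Rab3a* stood at -0.06. Of the 74 further genes 53 had enough UMIs, with 9 past the fold higher and 9 lower and a median of -0.02. The furthest were *Sytl2* (1.41) and *Rab3il1* (1.11) against *Mlph* (-0.76) and *Baiap3* (-0.74), a Munc13-related priming factor.

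The make-up of the nonendocrine barcodes differed between the libraries. Stellate-like barcodes were 446 in WT and 994 in GKO, immune-like 286 and 634, endothelial-like 587 and 440, ductal-like 64 and 95, and acinar-like 83 and 55. The summed level of 5 acinar genes reached 12147 CPM in nonendocrine barcodes of WT and 1867 CPM in those of GKO, and that of 7 endocrine genes (*Chga*, *Chgb*, *Scg2*, *Pcsk2*, *Isl1*, *Neurod1*, *Pax6*), none of them at 0 in either library, was 2936 and 2161 CPM, against 7733 to 14186 CPM in the hormone classes. A further 180 barcodes in each library met no cell type list, 10.9% of nonendocrine barcodes in WT and 7.48% in GKO, and carried 8.05% and 8.97% hormone UMIs. They held 54.1% and 54.2% of the nonendocrine *Syt13* UMIs, 58.4% and 52.9% of those of *Syt4*, 51.8% and 47.2% of those of *Snap25* and 50.0% and 47.7% of those of *Cplx2*, at levels near those of the hormone classes, such as 234 and 218 CPM for *Syt13*. For *Vamp2* and *Rab3a* they held 17.4% and 12.9%, and 19.7% and 17.0%. With barcodes of endothelial, stellate, immune or ductal markers only, the nonendocrine ratio was -0.72 for *Rab27a*, -0.50 for *Stx1a*, -0.44 for *Syt13*, -0.32 for *Cplx2* and -0.08 for *Syt7*, while *Rab3a* stood at 0.31, *Vamp2* at 0.32 and *Snap25* at 0.66. Without the 1 GKO barcode described below these last 3 stood at 0.14, 0.23 and -0.18. The unequal numbers of these cell types remain in those values.

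The ratios were also taken within the nonendocrine cell types, without the UMI floors used for the classes. In endothelial-like barcodes the members with intervals below 0 were *Snap25* at -1.38 (-2.83 to -0.14), *Syt13* at -1.32 (-2.16 to -0.54), *Rab27a* at -1.11 (-1.84 to -0.43), *Cplx2* at -0.85 (-1.43 to -0.30) and *Stx1a* at -0.64 (-1.30 to -0.01). *Snap25* rested there on 26 UMIs in WT and 7 in GKO, *Syt13* on 64 and 18 and *Rab27a* on 74 and 24. *Cplx2* had 98 and 38 UMIs and *Stx1a* 69 and 31. None of these members met the floors in these barcodes. The share of all genes with intervals below 0 in these barcodes was not counted, so the members cannot be set against it. The 7 endocrine genes summed there to 466 CPM in WT and 165 CPM in GKO, and hormones to 1.17% and 0.688% of UMIs, and their part in these ratios was not tested. *Rab3a* and *Vamp2* in endothelial-like barcodes stood at -0.08 (-0.36 to 0.18) and 0.18 (-0.10 to 0.45). In stellate-like barcodes the endocrine genes summed to 690 and 659 CPM. *Rab27a* was at -1.24 (-2.30 to -0.21) there on 19 and 16 UMIs. *Syt13* was at -0.84 (-1.32 to -0.35) on 69 and 77 UMIs, and neither gene met the floors. *Rab3a* in stellate-like barcodes was at 0.35 (0.11 to 0.60) and *Vamp2* at 0.23 (0.01 to 0.45). In ductal-like barcodes *Syt7* was at 0.86 (0.38 to 1.36) on 53 and 114 UMIs, also short of the floors.

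The higher nonendocrine values of *Rab3a* and *Snap25* rested in part on 1 GKO barcode, found after the values were seen. It held 80647 UMIs of 8863 genes, with 106 UMIs of *Rab3a*, 87 of *Snap25*, 66 of *Vamp2*, 27 of *Syt4*, 10 of *Stx1a* and none of *Syt7* or *Syt13*, which is 18.3% of all *Snap25* UMIs in GKO nonendocrine barcodes. Without it the nonendocrine ratio was 0.18 for *Rab3a*, short of the fold, 0.18 for *Vamp2* and -0.09 for *Snap25*. Among immune-like barcodes, to which it was assigned, *Snap25* went from 1.57 to 0.10 (-0.61 to 0.84) without it. *Rab3a* went there from 1.76 to 0.87 (0.34 to 1.42) and *Vamp2* from 0.49 to 0.09 (-0.25 to 0.44). No UMI floor was applied to these immune-like ratios. Without that barcode *Snap25* rested on 27 UMIs in WT and 48 in GKO, and *Rab3a* on 40 and 121.

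Because insulin-led barcodes were fewer in GKO, the classes from which each member's UMIs came shifted. Insulin-led barcodes held 54.1% of all *Snap25* UMIs of kept barcodes in WT and 32.8% in GKO, 64.4% and 44.3% of those of *Syt13*, and 27.9% and 13.5% of those of *Stx1a*. Glucagon-led barcodes went from 18.5% to 36.0% of *Syt7* UMIs and from 15.6% to 30.9% of *Cplx2* UMIs. A level taken over all cells of a library would thus mix these shares with the levels within classes.

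For each member the genes with the most similar profile were listed, by the Pearson correlation of log2(CPM + 1) over 16 points, the 4 hormone classes and 4 nonendocrine cell types in each library, among 6048 genes with at least 50 CPM in a class. The points share libraries and the division into endocrine and other barcodes, and the values are a description. *Syt13* ran with *Ptprn* (0.998), a granule membrane protein, and *Slc2a5* (0.996), *Syt4* with the granin *Scg3* (0.990) and *Efcab1* (0.989), and *Syt7* with *Nav2* (0.992) and the Rab effector *Rph3al* (0.970). *Snap25* ran with *Neurod1* (0.982), an islet transcription factor, *Snhg11* and *Elavl4*, the last pair at 0.979 each, and *Cplx2* with the kinase subunit *Camk2b* (0.978) and *Aplp1* (0.975). *Rab27a* ran with *Fndc3a* and *Tmed8* (both 0.960), and *Stx1a* with *Gabarapl2* (0.957). The closest genes were *Mapre3* (0.951) and the SNARE *Snap47* (0.951) for *Vamp2*, and *Tspan2* (0.887) for *Rab3a*, whose profile had no gene as near as those of the other members.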

How the data were processed

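Islet cells of 4 mice per genotype were pooled, sorted and profiled with the 10x Chromium 3′ kit, 1 library per genotype. The authors deposited raw UMI counts per gene and barcode, made with Cell Ranger 5.0.1 (file header) on mm10 (submitters' processing notes) and not yet cleaned of free RNA. Barcodes passing limits of 500 genes and 10% mitochondrial UMIs were classed by leading hormone, and UMIs were summed by class and library. No scaling factor was used in the main values, and TMM factors entered only the values given with TMM scaling. Libraries held 103511757 and 158067110 counts, with medians of 10521 and 13934 UMIs per barcode. Exact intervals were computed at 95%. The members and the wider list were chosen with earlier results of these data known. Named were all members, paralogs (1 paralog and 2 cell type markers are not reported here), the 2 list genes furthest from 0 in each direction per class, and up to 3 genes of most similar profile per member. Loci come from GENCODE and promoters from RefSeq, both on GRCm38. Alternatives covered the barcode filters, hormone threshold, doubled hormones, mixed markers, scaling (CPM totals, TMM), equal weight per barcode, thinning, free RNA, UMI floors and fold, and 4 ways to restrict the nonendocrine barcodes were chosen after seeing the data. R 4.3.3 with edgeR 4.0.16 gave the TMM factors, and the other steps ran in Python 3.11.15 (pandas 2.3.3, scipy 1.17.1, numpy 2.4.6), with plots by matplotlib 3.10.9. Only the GKO to WT ratios and their intervals were tested on simulated data, in which counts varied by Poisson counting error alone.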

Additional observations from a re-analysis of the deposited data

Results flagged for a closer look

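The log2 ratio of GKO to WT for *Syt4* was 0.33 in insulin-led barcodes and -0.41 in nonendocrine barcodes, and was singled out because the 2 classes lay on opposite sides of 0, each past the fold. With 1 library per genotype the difference between the classes was not tested. No-marker barcodes carrying 8.05% and 8.97% hormone UMIs held 58.4% of the nonendocrine *Syt4* UMIs in WT and 52.9% in GKO, and their part in the nonendocrine value was not tested.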

How the results depend on the processing

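With 1 library per genotype no replicate could be left out, and no spread between animals is known. No paired analysis was possible because each genotype has 1 library. The log2 ratio of insulin-led to the other hormone classes, averaged over both libraries and negative by CPM, changed sign for *Snap25*, *Vamp2*, *Syt7* and *Rab27a* without hormone UMIs (0.35, 0.24, 0.089 and 0.49), also without ribosomal protein and mitochondrial genes (0.33, 0.23, 0.062 and 0.47) and with TMM scaling (0.34, 0.24, 0.090 and 0.51). These scales remove or offset the hormone share by construction. The members' median ratio of GKO to WT in insulin-led barcodes was 0.0097, 0.0022 and -0.0068 on these 3 scales and 0.16 when thinned to 5000 UMIs, in somatostatin-led barcodes with at least 25% hormone, where 6 members had enough UMIs, -0.080, and in nonendocrine barcodes -0.54 with equal weight per barcode and 0.11 without mixed-marker barcodes, where 4 members had enough UMIs. Thinned to 5000 UMIs, the nonendocrine ratio of *Rab3a* was -0.060, and the cause was not tested.

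The share of all genes past the fold was counted under the main settings only. Counts of members and of further genes under alternatives thus have no such share to be set against. Members past the fold higher in insulin-led barcodes numbered 0 with TMM scaling, with thinning and at a fold of 0.5. They numbered 2 with at most 20% mitochondrial UMIs or free RNA subtracted, and 3 with no barcode filter. In nonendocrine barcodes the higher members numbered 0 with equal weight, with thinning, at a fold of 0.5 and without the 1 GKO barcode, also when only endothelial, stellate, immune or ductal markers were allowed, 2 with TMM, without mixed-marker or without ghrelin-rich barcodes, and 3 with no filter, with 20% mitochondrial UMIs or with the last restriction while that barcode was kept, while the lower ones numbered 3 at a fold of 0.5 and 1 without mixed-marker barcodes. A leading hormone of 25% gave 1 higher member in glucagon-led and 2 in somatostatin-led barcodes, equal weight and mixed-marker removal gave 1 in PP-led barcodes each, TMM and thinning gave 1 lower member in somatostatin-led barcodes each, and a fold of 0.5 left 0 lower in glucagon-led barcodes. *Rab27a* in glucagon-led barcodes stayed at -0.25 or below under 12 of 12 alternatives of its value, between -0.41 and -0.26.

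Of the 74 further genes those past the fold in either direction in insulin-led barcodes numbered 9 when thinned, with UMI floors of 50 and 500 or without hormone, ribosomal and mitochondrial genes, 8 with TMM and 1 at a fold of 0.5. At that fold they numbered 2 in glucagon-led, 1 in somatostatin-led, 1 in PP-led and 8 in nonendocrine barcodes, with thinning 5, 10, 2 and 9, and with the higher floors 2 in PP-led and 10 in nonendocrine barcodes. A leading hormone of 25% left 1 in somatostatin-led barcodes, and the 4 cell types without the 1 GKO barcode gave 11 in nonendocrine barcodes. Of 1175 values under alternatives 966 kept their call or size, 195 moved and 14 changed sign from a main value of 0.25 or more in size. Sign changes of smaller main values stand among those kept or moved. An example is *Rab3a* in PP-led barcodes, below 0 under 7 of 12 alternatives. Depth limits *Stx1a*, whose intervals spanned 0 in the 4 hormone classes.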

Other observations

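The GKO barcode richest in *Snap25* among nonendocrine barcodes, chosen after its values were seen, also carried 522 UMIs of *Vip*, 452 of *Npy*, 397 of *Stmn2*, 446 of *Uchl1* and 292 of *Tubb3*, genes that neurons express. It held 36 UMIs of *Syt1*, the fast synaptic calcium sensor, and 18 of the 19 *Cplx1* UMIs of GKO nonendocrine barcodes, against 3 of *Cplx2*. UMIs of 9 of 12 immune and 7 of 7 endothelial markers were found in the same barcode, and hormones made up 0.267% of its UMIs.

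*Ghrl*, the mark of ghrelin cells, is the gene targeted in GKO, so its share cannot show whether such cells were present there. In WT 5 nonendocrine barcodes had at least 10% of their UMIs in *Ghrl*, and 0 did in GKO. The 143417 UMIs of the 5 WT barcodes held 14 each of *Vamp2* and *Cplx2*, 12 of *Syt7*, 11 of *Syt13*, 9 each of *Stx1a* and *Rab3a*, 6 each of *Snap25* and *Syt4* and 2 of *Rab27a*. The level of *Stx1a* there was 62.8 CPM, against 3.10 to 14.5 CPM in the hormone classes of WT, on these 9 UMIs.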
